A study of Mus musculus with 4 samples.

Results

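Mast cells were picked out of the CD45+ cells of the dura mater, the outer layer of the meninges, by the genes of their secretory granules. A cell was taken as a mast cell when it had at least 3 of *Cpa3*, *Mcpt4*, *Cma1*, *Tpsb2* and *Kit* above 0, with *Mcpt4* or *Tpsb2* at 2 or more on the natural log scale of the deposited values. It also had to lie below 1.5 for the macrophage gene *C1qa*, to be at 0 for *Cd3e* and *Cd79a*, to show over 1000 but under 6000 genes, with at most 7% of the cell's unique molecular identifiers (UMIs) on mitochondrial genes. The rule found 108 mast cells among 3569 dural cells on day 3 after a sham operation (S3) and 93 among 2668 on day 3 after photothrombotic injury (PTI; D3). These 201 cells are drawn from 6237 dural cells and from 14586 cells in the whole series.

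Both groups were C57BL/6J mice labelled as adult. S3 is the library labelled CT and D3 the library labelled INJ, and PTI clots the vessels under a lit patch of skull by light-activated dye. Dural tissue was digested with enzymes at warm temperature, live CD45+ cells were sorted, and 3' libraries were made on the 10X Chromium system, so the values describe only cells that outlived the digestion and the sort. Each condition has 1 library and the number of mice in it is not given in the sources used here. No difference between S3 and D3 could therefore be set against a spread between mice, no test was made, and every interval below covers counting error only.

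Mast cells are long-lived tissue cells that mature in place under the hold of KIT, the receptor of stem cell factor. They pack proteases, histamine and heparin into granules and release them when IgE bound to its high-affinity receptor is cross-linked, or when the receptor MRGPRB2 meets cationic peptides. The dura mater is among the tissues known to be rich in connective tissue mast cells, which lie along its vessels and nerves and have been studied in headache and in injury of the brain.

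The DNA just upstream of genes that carry the cells' identity, and of genes on which the results below turn, is shown first. The 250 bases before the RefSeq start are given on GRCm38.p6, the build also named mm10. The windows are chr14:56062311-56062560 for *Mcpt4*, chr14:55944676-55944925 for *Cma1*, chr3:20242182-20242431 for *Cpa3*, chr1:173227230-173227479 for *Fcer1a* and chr5:14938476-14938725 for *Speer4e*, all on the minus strand. The window of *Gm21083* is chr5:15577043-15577292 on the plus strand. Each is written 5' to 3' in the direction of its gene. Capitals mark words read by GATA factors, which are AGATAA, the word TGATAA, the word AGATAG and the word TGATAG, or E-box words, which are CACGTG and the word CATGTG, searched on both strands, so that their reverse complements are marked too.
Mcpt4: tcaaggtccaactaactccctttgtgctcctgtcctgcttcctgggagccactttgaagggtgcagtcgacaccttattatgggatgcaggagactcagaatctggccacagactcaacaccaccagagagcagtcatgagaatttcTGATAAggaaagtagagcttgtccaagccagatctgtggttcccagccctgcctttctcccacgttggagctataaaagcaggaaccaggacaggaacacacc
Cma1: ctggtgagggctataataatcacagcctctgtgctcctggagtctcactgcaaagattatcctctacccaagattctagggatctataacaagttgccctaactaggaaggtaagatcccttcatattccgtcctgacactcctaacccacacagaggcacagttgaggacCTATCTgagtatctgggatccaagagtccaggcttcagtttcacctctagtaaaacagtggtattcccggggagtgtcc
Cpa3: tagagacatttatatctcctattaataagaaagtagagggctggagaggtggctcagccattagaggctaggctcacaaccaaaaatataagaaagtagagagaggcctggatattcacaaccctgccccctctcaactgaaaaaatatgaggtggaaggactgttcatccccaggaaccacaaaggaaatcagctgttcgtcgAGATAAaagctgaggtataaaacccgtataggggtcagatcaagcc
Fcer1a: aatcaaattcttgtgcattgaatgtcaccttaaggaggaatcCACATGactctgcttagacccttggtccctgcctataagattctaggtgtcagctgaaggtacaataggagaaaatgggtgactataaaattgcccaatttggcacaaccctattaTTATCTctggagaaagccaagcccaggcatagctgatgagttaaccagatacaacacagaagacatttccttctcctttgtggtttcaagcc
Speer4e: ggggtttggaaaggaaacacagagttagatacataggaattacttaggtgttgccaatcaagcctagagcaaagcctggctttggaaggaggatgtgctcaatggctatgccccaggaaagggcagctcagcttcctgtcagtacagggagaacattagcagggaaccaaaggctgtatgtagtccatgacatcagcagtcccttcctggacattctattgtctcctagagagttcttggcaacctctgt
Gm21083: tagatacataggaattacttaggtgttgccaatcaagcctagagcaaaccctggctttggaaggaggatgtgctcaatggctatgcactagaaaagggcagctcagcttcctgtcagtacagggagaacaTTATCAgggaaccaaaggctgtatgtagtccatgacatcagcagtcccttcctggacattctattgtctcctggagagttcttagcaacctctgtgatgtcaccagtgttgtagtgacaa
Of 24 genes looked up, 18 had an entry. A GATA word stood before the first listed start in 14 of these and an E-box word in 2. The genes without an entry were *Tpsb2*, *Tpsab1*, *Ccl2*, *Ccl7*, *Krt4* and *Gnaz*. Among all 32851 windows of this length 26.5% held a GATA word and 17.6% an E-box word. *Fcer1a* and *Slc6a4* held both kinds, and *Kit*, *Speer4e*, *Gm10354* and *Gm9758* held neither. These letters describe the windows and do not show binding.

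The marker genes that chose the cells are given as a description (plot of rule markers by cell). *Mcpt4*, a chymase of connective tissue mast cells, had a median of 6.27 on the natural log scale at S3 (lowest 0.335, highest 6.92) and 6.30 at D3. *Cma1*, the chymase MCPT5, had medians of 5.77 and 6.05, *Tpsb2*, a tryptase, 5.81 and 5.94, and *Cpa3*, carboxypeptidase A3, 5.33 and 5.48. *Kit* had medians of 2.54 and 2.65 and was seen in 108 of 108 cells at S3 and in 91 of 93 at D3. Together the 5 genes held 13.3% of all UMIs of the S3 mast cells and 15.9% at D3, and single cells ran from 0.0955% to 24.2% in S3 and from 0.263% to 27.1% in D3. In B cells of the same libraries, which should lack them and so measure free RNA, the 5 genes came to 68.1 and 107 UMIs for each 1000000 UMIs (CPM). For genes that B cells may make themselves, the B cell levels below are no such measure.

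**Figure D1:**
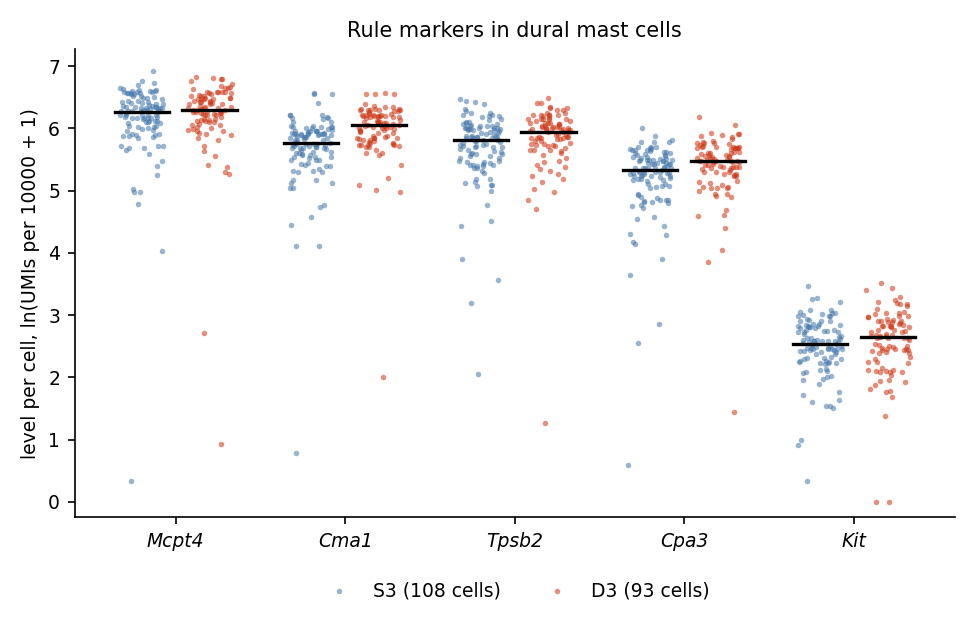
Level of the 5 marker genes in each mast cell of S3 (108 points, blue) and D3 (93 points, red), as the natural log of 1 plus UMIs for each 10000 UMIs of the cell, with horizontal lines at the medians. Most cells sit in a narrow band in both libraries, *Mcpt4* around 6.27 and 6.30, and a few cells lie far below it.

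The lowest members stood at 2.05, 4.03 and 4.79 at S3 and at 2.72, 5.27 and 5.64 at D3. The highest cells left outside stood at 1.0, 0.959 and 0.921 at S3 and at 1.49, 1.22 and 1.19 at D3. Next to the other limits, *C1qa* was 1.43 in the nearest S3 cell inside and 1.51 in the nearest outside, and 1.48 and 2.31 at D3. The mitochondrial share was 6.86% and 7.07% at S3 and 6.98% and 7.50% at D3.

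A few members carried much of another cell type. In 4 cells at S3 and in 1 at D3 both *Mcpt4* and *Tpsb2* were below 5. One of the S3 cells held 25122 UMIs, among them 2753 of *S100a8*, 984 of *Camp*, 300 of *Chil3* and 187 of *Elane*, all genes of neutrophils or their precursors, beside 17 of *Tpsb2*. The others at S3 held 212, 545 and 478 UMIs of *Cd74*, the invariant chain of MHC class II, and the D3 cell held 2368 of *S100a8*. Scrublet, which scores a barcode by its likeness to simulated doublets, placed 2 of the 4 S3 cells and 0 of the 1 D3 cell among those it would remove. The values of S3 against D3 below are for all members, and for genes whose ratio moved over 1.5-fold without these cells the ratio in the remaining 104 and 92 cells is given too. These remaining cells were not free of neutrophil RNA, since 2 of them at S3 and 1 at D3 held over 100 UMIs of *S100a8*.

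The median mast cell held 8192.5 UMIs and 2605 genes at S3 and 10463 UMIs and 2918 genes at D3, and the summed UMIs were 888489 and 1016214. The 2 dural libraries shared 5 cell barcodes, and 0 of the mast cells carried one of them. Mast cells made up 3.03% of dural CD45+ cells at S3 (exact binomial 95% interval 2.49 to 3.64) and 3.49% at D3 (2.82 to 4.25), and these intervals overlap. A share of sorted cells depends on every other cell type, and macrophages of the same libraries came to 21.9% at S3 and 40.0% at D3.

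Against the other dural cells the mast cells stood apart most by *Speer4e*, by the serotonin transporter *Slc6a4*, by the keratin *Krt4*, and by *Gm21083*, *Mrgprb2* and *Mrgprb1*. These lead the 20 genes with the largest ratio in the lower of both libraries among 1161 genes with at least 100 UMIs in the mast cells of each. The others are *Mcpt4*, *Gm10354*, *Tpsb2*, *Atp8b5*, *Tpsg1*, *Cma1*, *Cpa3*, *Hs6st2*, *Cobl*, *Meis2*, *Tph1*, *Mrgprx2*, *Gnaz* and *Tpsab1*. The median log2 ratio of the 20 over all other dural cells was 8.50 at S3 and 8.79 at D3. Since the cells were chosen by some of these genes, the ratios are a description and were not tested. Of the set, *Slc6a4* was at 1093 CPM at S3 and 977 at D3 in mast cells and at 2.66 and 1.98 in the rest. *Krt4* was at 246 and 246 CPM beside 0.625 and 0.489, and *Meis2*, a homeobox factor, at 321 and 309 beside 1.11 and 0.587.

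**Figure D2:**
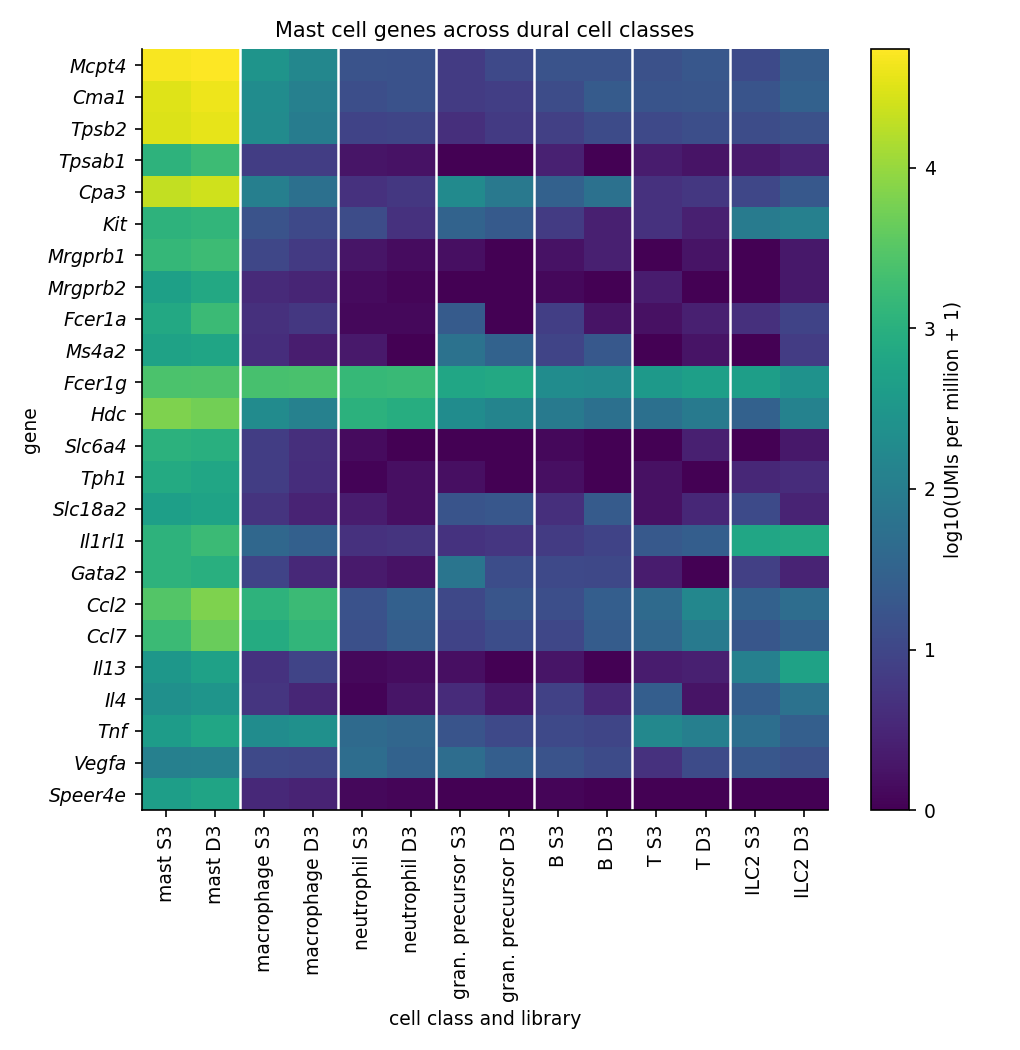
Levels of 24 mast cell genes, as log10 of 1 plus CPM, in mast cells and in 6 other classes of dural cells at S3 and D3, with B cells shown without the 1 cell per library that also met the mast marker level. For the proteases, *Mrgprb1*, *Slc6a4* and *Speer4e* the mast cell columns are far brighter than those of the other classes. *Fcer1g* is shared with macrophages and neutrophils, *Il1rl1* with group 2 innate lymphoid cells (ILC2) and *Ccl2* and *Ccl7* with macrophages.

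Between S3 and D3 the mast cells were close to each other over most genes (scatter plot of CPM at S3 and D3). Of 4723 genes with at least 50 UMIs in both libraries together, 43 were at least 2-fold higher at D3 (0.91%) and 62 at least 2-fold lower (1.31%), with a median log2 ratio of -0.04. Without the cells of low *Mcpt4* and *Tpsb2* the counts were 41 and 51, of which 31 and 37 were among the first. Without the richest cell of each gene they were 32 and 48. Counts for the gene lists below are to be read against the shares of 0.91% and 1.31%, at which a short list would hold few such genes or none. UMIs from 3' ends are not scaled by gene length, so CPM of different genes are set side by side only as UMIs.

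**Figure D3:**
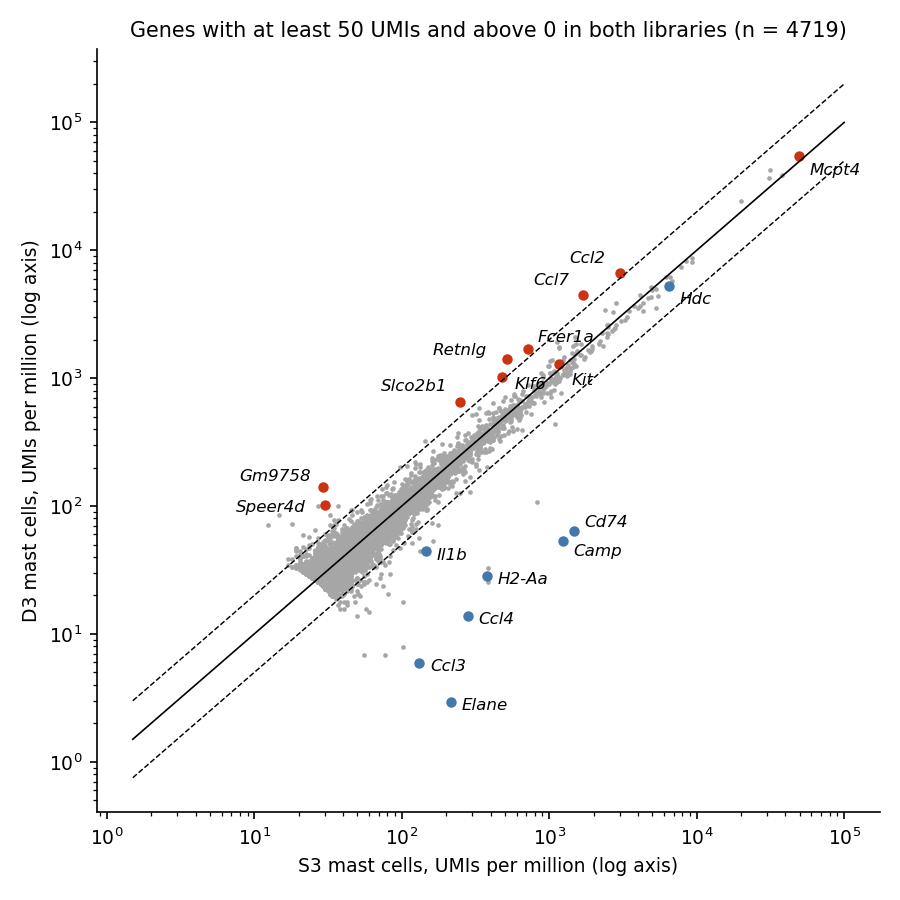
Each grey point is 1 of 4719 genes with at least 50 UMIs and above 0 in both libraries, by its CPM in S3 mast cells and in D3 mast cells on log axes, with lines at equality (solid) and at 2-fold (dashed). Labelled points are red where higher at D3 and blue where lower. *Ccl2*, *Ccl7*, *Fcer1a*, *Slco2b1* and *Gm9758* lie above the upper dashed line, while the markers *Mcpt4* and *Kit* lie near equality.

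The granule proteases of the rule were higher in D3 than in S3, each by less than 2-fold. Of 4 tryptases measured 0 were 2-fold apart, with a median log2 ratio of 0.35, and likewise 0 of 4 genes of the chymase locus (median 0.28) and 0 of 9 other granule proteases and their inhibitors (0.27), against backgrounds of 0.91% and 1.31% in the 2 directions. In the chymase locus *Ctsg* was at 0.996, and from 0.39 to 1.32 over the alternatives. Among the others *Ctsl* was at -0.82, and from -1.24 to -0.23. Both were past 2-fold without the cells of low *Mcpt4* and *Tpsb2* (1.32 and -1.17). *Cma1* was at 31423 CPM at S3 (31055 to 31794) and 42085 at D3 (41687 to 42485), a log2 ratio of 0.42 that ranged from 0.34 to 0.48 over the alternatives. *Mcpt4* was at 49688 and 54621 CPM (0.14), *Tpsb2* at 31077 and 36753 (0.24) and *Cpa3* at 19946 and 24401 (0.29). All 4 genes are markers of the rule, and they make up a large share of the total against which every gene's CPM is set.

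Among protease genes the rule did not use, *Tpsab1*, another tryptase gene, was at 1163 CPM at S3 (1093 to 1236) and 1739 at D3 (1659 to 1822), with a log2 ratio of 0.58. *Tpsg1*, a tryptase anchored in the membrane, went the other way, at 624 CPM at S3 and 471 at D3 (-0.40). *Ctsd*, the lysosomal protease cathepsin D, was at 1122 and 1927 CPM (0.78; 0.62 to 0.84 over the alternatives) and was seen in every cell of both libraries. In macrophages of the same libraries *Ctsd* was at 1021 and 1437 CPM. *Serpinb1a*, an inhibitor of neutrophil-type proteases, was at 2856 and 3884 CPM (0.44). Tryptases and chymases have close relatives, and reads that fit several copies could be split between them or lost in the authors' counting. *Prss34* was carried by 14 cells at S3 and 20 at D3, at 182 and 249 CPM summed, and thinned to 2000 UMIs it was seen in 11.1% and 15.1% of mast cells. B cells were at 270 and 274 CPM, but in only 0.645% and 0.599% of them thinned.

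Genes for the granule matrix and heparin were all within 2-fold. Of 12 measured 0 were 2-fold apart, the log2 ratios running from -0.86 to 0.67 with a median of 0.09. The lowest was *Ndst1*, with 35 and 22 UMIs, and the highest *Hs6st1*, with 38 and 69. *Srgn*, the core protein serglycin, was at 4100.2 CPM at S3 and 4509 at D3. *Ndst2*, which sulfates heparin in mast cells, was at 259 and 295, and *Cd63*, a granule membrane protein, at 2465 and 2595.

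Of 8 genes of amine synthesis and storage measured 0 were 2-fold apart. Their log2 ratios were above 0 in 3 and below in 5, with a median of -0.16 beside -0.04 over all genes. *Hdc*, which makes histamine, was at 6501 CPM at S3 (6334 to 6671) and 5302 at D3 (5161 to 5446). Its log2 ratio of -0.29 lay between -0.37 and -0.25 under every alternative, and the median cell was at 6643 and 5482 CPM. *Tph1*, the first enzyme of serotonin synthesis outside the brain, was at 773 and 636 (-0.28), *Slc6a4* at 1093 and 977 (-0.16) and *Slc18a2*, which pumps amines into vesicles, at 469 and 550 (0.23). Of 5 eicosanoid enzymes measured 0 were 2-fold apart, with 3 above 0, 2 below and a median of 0.10. *Alox5ap*, the partner of 5-lipoxygenase, was at 383 and 323 CPM (-0.25) and *Ptgs1*, a cyclooxygenase, at 29.3 and 23.6 (-0.31, and 0.13 without the low-marker cells). *Hpgds*, which makes prostaglandin D2, was at 337 and 385 CPM, and *Alox5*, of leukotriene synthesis, at 131 and 186 (0.51).

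The IgE receptor differed by subunit. *Fcer1a*, the chain that binds IgE, was at 714 CPM at S3 (659 to 771) and 1703 at D3 (1624 to 1786), a log2 ratio of 1.26 with a range of 1.05 to 1.35 over the alternatives. Its median cell was at 426 CPM at S3 and 1457 at D3, and the highest at 3314 and 5441. It was seen in 80 of 108 cells and in 82 of 93, and with every cell thinned to 2000 UMIs in 60.2% and 73.1%. The cells of both libraries overlap, with some at 0 in each, and the highest stood at D3 (plot of selected genes by cell). B cells held *Fcer1a* at 6.47 and 0.793 CPM. *Ms4a2*, the beta chain, was at 545 CPM at S3 and 603 at D3 (0.15), and *Fcer1g*, the shared gamma chain, at 2510 and 2583 (0.04).

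Downstream of the receptor, 20 of 20 genes on the list were measured. Of these, 1 was 2-fold higher, *Fcer1a* itself, and 1 lower, *Orai1* (0.91% and 1.31% over all genes), with a list median of -0.07. The kinases *Lyn* (226 and 192 CPM), *Syk* (113 and 98.4) and *Fyn* (131 and 109), the adaptors *Lat* (145 and 186) and *Lat2* (716 and 725) and the phosphatase *Inpp5d* (422 and 399) were within 2-fold. *Orai1*, the calcium channel, rested on 36 and 18 UMIs (-1.19), and its ratio changed sign when cells were thinned. Of 15 measured genes of the degranulation machinery 0 were 2-fold apart (median -0.04). *Rab27b*, which docks granules, was at 580 and 618 CPM in mast cells and at 7.29 and 6.33 in other dural cells, and *Mlph* at 143 and 135 beside 0.555 and 0.611.

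Among 25 surface receptors measured 0 were 2-fold apart (0.91% and 1.31% over all genes), and the median log2 ratio was 0.16. *Il1rl1*, the IL-33 receptor ST2, was at 1165 CPM at S3 (1095 to 1238) and 1727 at D3 (1647 to 1810), a log2 ratio of 0.57 with a range of 0.49 to 0.60. The quartiles of its level by cell were 758 and 1594 CPM at S3 and 1272 and 2124 at D3, and ILC2 held it at 638 and 720 CPM. *Mrgprb2* was at 497 and 718 CPM (0.53), *Mrgprb1* at 1458 and 1799 (0.30) and *Mrgprx2*, of the same family, at 195 and 262 (0.43). *Ednra*, which binds the vasoconstrictor endothelin, was at 115 and 176 (0.62), and *P2rx1*, an ATP-gated channel, at 74.3 and 120 (0.69). *Kit* was at 1157 and 1298 (0.17), *Cd200r3* at 438 and 543 and the adenosine receptor *Adora3* at 389 and 479. *Slco2b1*, a transporter of organic anions, was at 250 CPM at S3 (218 to 285) and 654 at D3 (606 to 706), with a log2 ratio of 1.39 and a range of 1.12 to 1.40. It was seen in 57 of 108 and 54 of 93 cells, and macrophages held it at 212 and 202 CPM.

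The chemokine genes *Ccl2* and *Ccl7* were more than 2-fold higher at D3, and most cells carried them. Of 14 cytokine and chemokine genes measured, 2 were at least 2-fold higher at D3 and 3 lower (0.91% and 1.31% over all genes), with a median of 0.17. *Ccl2*, the main attractant of CCR2+ monocytes, was at 3007 CPM at S3 (2894 to 3124) and 6589 at D3 (6432 to 6749). Its log2 ratio of 1.13 ranged from 1.05 to 1.22. It was seen in 108 of 108 and 92 of 93 cells, and the median cell stood at 2453 and 5910 CPM. *Ccl7*, a neighbour of *Ccl2* on chromosome 11 with the same main receptor, was at 1694 CPM at S3 (1609 to 1782) and 4469.5 at D3 (4341 to 4601). Its log2 ratio of 1.40 ranged from 1.31 to 1.61. Its median cell was at 519 and 2619 CPM, and 73 of 108 and 77 of 93 cells had a UMI.

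The single cells of S3 and D3 overlapped for both chemokines. *Ccl2* ran from 39.8 to 18772 CPM by cell at S3 and from 0 to 31595 at D3, and its quartiles were 1293 and 3868 at S3 and 3515 and 8240.1 at D3. *Ccl7* reached 12229 CPM in the highest S3 cell and 28477 in the highest D3 cell, and its lower quartile was 0 at S3 and 191 at D3. Across the cells with high *Mcpt4* or *Tpsb2*, which share a library, Spearman's rho of *Ccl2* with *Ccl7* was 0.26 at S3 (104 cells) and 0.40 at D3 (92 cells), and 0.20 and 0.40 with cells thinned. Whether the difference was larger than in other cells was not tested. Macrophages of the same libraries held *Ccl2* at 1160 and 1730 CPM and *Ccl7* at 833 and 1331, and B cells held *Ccl2* at 12.7 and 25.4 CPM and *Ccl7* at 9.0 and 23.0. *Ccl8*, another ligand of the group, had 4 and 26 UMIs in mast cells.

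**Figure D4:**
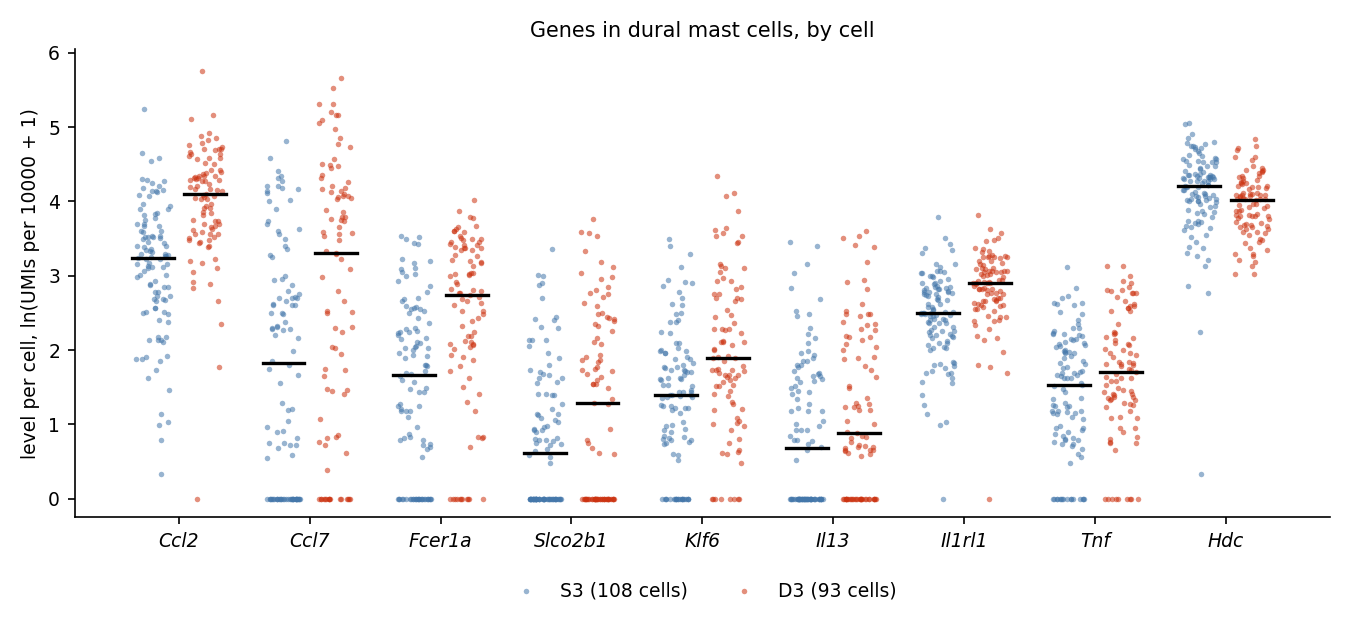
Level of 9 genes in each mast cell of S3 (108 points, blue) and D3 (93 points, red), as the natural log of 1 plus UMIs for each 10000 UMIs of the cell, with lines at the medians. *Ccl2*, *Ccl7* and *Fcer1a* have higher medians at D3 with overlapping cells, *Il13* and *Slco2b1* have many cells at 0, and *Hdc* is slightly lower at D3.

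Type 2 cytokines were spread unevenly over the cells. *Il13* was at 321 CPM at S3 (285 to 360) and 523 at D3 (479 to 569), a log2 ratio of 0.70 with a range of 0.57 to 0.80. It was seen in 56 of 108 and 63 of 93 cells, and after thinning in 27.8% and 46.2%, while B cells had it in 0 and 0 of those thinned. By cell it ran up to 3058 CPM at S3 and 3561 at D3. *Il13* in ILC2 of the same libraries was at 113 and 543 CPM. *Il4* was at 237 and 293 CPM (0.30) in 80 and 73 cells. *Tnf*, which mast cells are known to store, was at 416 CPM at S3 (375 to 461) and 635 at D3 (587 to 686), a log2 ratio of 0.61 that went as low as 0.22 among the alternatives. *Csf1* was at 108 and 157 CPM, *Tgfb1* at 228 and 270 and *Il6* at 34.9 and 36.4. *Csf2* had 2 and 29 UMIs, of which 65.5% at D3 lay in a single cell.

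The chemokines *Ccl3* and *Ccl4* and the cytokine *Il1b* were lower at D3 but rested on few cells. *Ccl3* was at 132 and 5.90 CPM, with 92.3% of the S3 UMIs in a single cell. *Ccl4* was at 279 and 13.8 CPM in 14 and 10 cells (log2 ratio -4.34, and -3.52 without the low-marker cells), and *Il1b* at 145 and 44.3 in 15 and 18 cells. The level in B cells came to 54.7 and 8.72 CPM for *Ccl3*, 145 and 52.3 for *Ccl4* and 190 and 170 for *Il1b*.

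*Vegfa*, the main growth factor of blood vessels, was at 116 CPM at S3 (94.6 to 141) and 121 at D3 (101 to 144), a log2 ratio of 0.06 that lay between -0.03 and 0.39 over the alternatives. It was seen in 42 of 108 and 46 of 93 cells, and after thinning in 16.7% and 19.4%, beside 2.71% and 1.80% of thinned B cells. Of 6 angiogenic factors measured 0 were 2-fold apart, with a median of 0.16. *Thbs1* had a log2 ratio of 0.62, and of -1.29 without the low-marker cells. *Lgals1* was at 913 and 1059 CPM and *Pdgfa* at 43.9 and 35.4. *Fgf2* had 7 and 11 UMIs and *Hgf* 14 and 7.

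The transcription factors that keep mast cell identity were near level. *Gata2* was at 1145 CPM at S3 (1075 to 1217) and 986 at D3 (926 to 1049), with a log2 ratio of -0.22 and a range of -0.30 to -0.16. *Mitf* was at 231 and 205 CPM (-0.17), *Tal1* at 133 and 184 (0.47) and *Runx1* at 83.3 and 50.2 (-0.73). Of 17 measured, 1 was 2-fold higher and 0 lower (0.91% and 1.31% over all genes), with a list median of -0.12. The higher gene was *Lyl1*, at 27.0 and 56.1 CPM (1.05). B cells held *Lyl1* at 73.7 and 74.5 CPM, above the level in mast cells of both libraries.

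Immediate early genes, which respond within minutes to stimuli and also to tissue digestion, stood high in both libraries and summed to 42184 CPM at S3 and 41567 at D3. Of 22 measured, 2 were 2-fold higher and 1 lower, against 0.91% and 1.31% over all genes (median -0.02). *Junb* was at 7876 and 7414 CPM, *Jun* at 6194 and 6156, *Fos* at 5326 and 5026 and *Egr1* at 3758 and 3648. The exceptions were *Klf6*, at 479 CPM at S3 (435 to 527) and 1030.3 at D3 (969 to 1095), with a log2 ratio of 1.10 and a range of 1.07 to 1.32, *Atf3*, with 19 and 60 UMIs in 14 and 17 cells, and *Btg2*, at 133 and 44.3 CPM in 14 and 13 cells beside 806 and 757 in B cells. *Egr3* was at 333 and 589 CPM (0.82) and *Nr4a2* at 406 and 281 (-0.53), in 44 and 34 cells. The part of digestion in these levels was not tested.

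Other stress and survival lists held few differences. Of 11 heat shock genes 1 was 2-fold higher (0.91% over all genes), *Hspa1a*, at 97.9 and 202 CPM in 23 and 25 cells. Its near copy *Hspa1b* was at 146 and 108. Of 11 genes of glycolysis and hypoxia 0 were 2-fold apart (median -0.08), with *Ldha* at 1480 and 1401 CPM. *Mcl1*, a survival factor, was at 656 and 753. Of 12 adhesion genes 0 were 2-fold apart, the nearest being *Icam1* at 125 and 65.9 CPM (-0.92), in 56 and 39 cells. *Isg15*, an interferon-induced gene, was seen in 34 of 108 and 26 of 93 cells. *Mki67*, a gene of dividing cells, was seen in 2 cells at S3 and in 2 at D3.

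MHC class II genes, which present antigen to T cells, were lower at D3 over all members. Of 6 measured 6 were 2-fold lower (1.31% over all genes), and the list summed to 2718 CPM at S3 and 181 at D3, with a median log2 ratio of -3.64. *Cd74* was at 1468 and 64.0 CPM, *H2-Eb1* at 384 and 28.5, *H2-Aa* at 377 and 28.5 and *H2-Ab1* at 382 and 32.5. Without the 4 and 1 cells of low *Mcpt4* and *Tpsb2*, the log2 ratio was -0.33 for *Cd74*, -0.00 for *H2-Eb1*, -0.63 for *H2-Ab1* and 0.33 for *H2-Aa*, so none of these 4 was 2-fold lower. B cells, which make *Cd74* themselves, held it at 5744 and 8971 CPM.

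Several genes of largest ratio also rested on single cells. Among those with at least 100 UMIs 20 of 2655 genes were at least 2-fold higher and 27 lower. *Elane*, of granulocyte precursors, was at 215 CPM at S3, with 97.9% of its UMIs in a single cell, and at 2.95 at D3. *Camp* (1236 and 53.1 CPM), *Chil3* (384 and 25.6) and *Ngp* (826 and 108) had 89.6%, 88.0% and 84.7% of their S3 UMIs in 1 cell each. Without the low-marker cells the log2 ratio was -0.70 in place of -6.19 for *Elane*, -1.73 in place of -4.54 for *Camp*, -1.08 in place of -3.91 for *Chil3* and -1.51 in place of -2.93 for *Ngp*. *Gm5483*, a stefin-like gene, had 0 UMIs at S3 and 278 at D3, at least 81.0-fold higher against a floor of 3 UMIs, with all 278 in 2 cells. *Retnlg* was at 521 and 1417 CPM with 93.7% and 67.4% in 1 cell, *Ifitm6* at 32.6 and 84.6 with 74.4% of the D3 UMIs in 1 cell, and *Bambi* at 27.0 and 99.4 with 82.2% of the D3 UMIs in 1 cell. Without the low-marker cells the log2 ratio of *Retnlg* was -0.27 in place of 1.44 and that of *Ifitm6* 0.09 in place of 1.37. *Cd93*, by contrast, was at 37.1 and 99.4 CPM over 26 and 40 cells. B cells were at 109 and 72.1 CPM, with a UMI in 44.3% and 29.3% of them. Whether B cells make *Cd93* themselves or hold it as free RNA was not tested.

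A family of genes on chromosome 5 split the mast cells. *Speer4e*, *Gm21083*, *Gm10354*, *Gm9758* and *Speer4d* belong to a mouse family first described for genes of the testis. *Gm9758* (chr5:14910122-14914899), *Speer4e* (chr5:14933221-14938429) and *Gm10354* (chr5:14974113-14978935) lie on the minus strand, and *Gm21083* (chr5:15577333-15582078) and *Speer4d* (chr5:15619064-15623864) on the plus strand. The 250 bases upstream of *Speer4e*, *Gm21083*, *Gm10354* and *Speer4d* were 96.5% to 97.9% alike at the best shift without gaps. *Gm9758* came to 68% with *Speer4e* and up to 76.2% with *Gm10354* by the same measure without gaps. Its window lacks a base in the middle that the other windows hold, and the bases on both sides are nearly the same. A measure without gaps sets the bases past such a point out of step. These lower values therefore do not show that *Gm9758* is a more distant copy. For copies this alike, reads that fit several of them could be given to a single copy or lost. The single genes are therefore uncertain and the family sum is firmer. Whether reads of *Gm9758* are shared in this way was not tested.

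At least 1 of the 5 genes was seen in 55 of 108 cells at S3 (50.9%; 41.1 to 60.7) and in 61 of 93 at D3 (65.6%; 55.0 to 75.1). The rest of the dural cells had one in 15 of 3461 and in 23 of 2575. The positive cells were not the deeper ones throughout, with medians of 8442 UMIs against 7687 in negative cells at S3 and 10017 against 11395.5 at D3. With every cell thinned to 2000 UMIs, 38 of 108 and 43 of 93 remained positive. The family summed to 771 CPM at S3 and 1186 at D3, beside 1.41 and 2.15 in the rest of the dura. A positive cell held a median of 6 UMIs of the family at S3 and 14 at D3, and at most 88 and 96. *Speer4e* alone was at 456 CPM at S3 (413 to 502) and 581 at D3 (535 to 629), *Gm9758* at 29.3 (19.1 to 42.9) and 140 (118 to 165), and *Speer4d* at 30.4 and 101 CPM (log2 ratio 1.74).

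The 5 genes were often seen in the same cells (heat map of family UMIs by cell). Of the cells with *Speer4e*, 42 of 53 at S3 and 45 of 55 at D3 held another member, and of those without it 2 of 55 and 6 of 38. All 5 were seen in 4 and 11 cells. Across cells of high *Mcpt4* or *Tpsb2* (104 and 92), Spearman's rho of *Speer4e* was 0.78 and 0.78 with *Gm21083* (0.51 and 0.49 with cells thinned to 2000 UMIs), 0.72 and 0.75 with *Gm10354* (thinned 0.37 and 0.63) and 0.54 and 0.73 with *Speer4d* (thinned 0.26 and 0.55). It was 0.43 and 0.38 with *Gm9758* (thinned 0.21 and 0.37) and 0.33 and 0.29 with *Tpsab1* (thinned 0.30 and 0.27). With *Mcpt4* it was 0.07 at S3 and -0.55 at D3 (thinned 0.03 and -0.44), and with *Cpa3* -0.05 and -0.48 (thinned -0.06 and -0.38). The median level of *Mcpt4* was 54371 CPM in positive and 48558 in negative cells at S3, and 50155 and 64646 at D3, so the order was opposite in the libraries. *Tpsab1* was higher in positive cells of both, with medians of 1202 and 526 CPM at S3 and 1558 and 899.9 at D3.

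**Figure D5:**
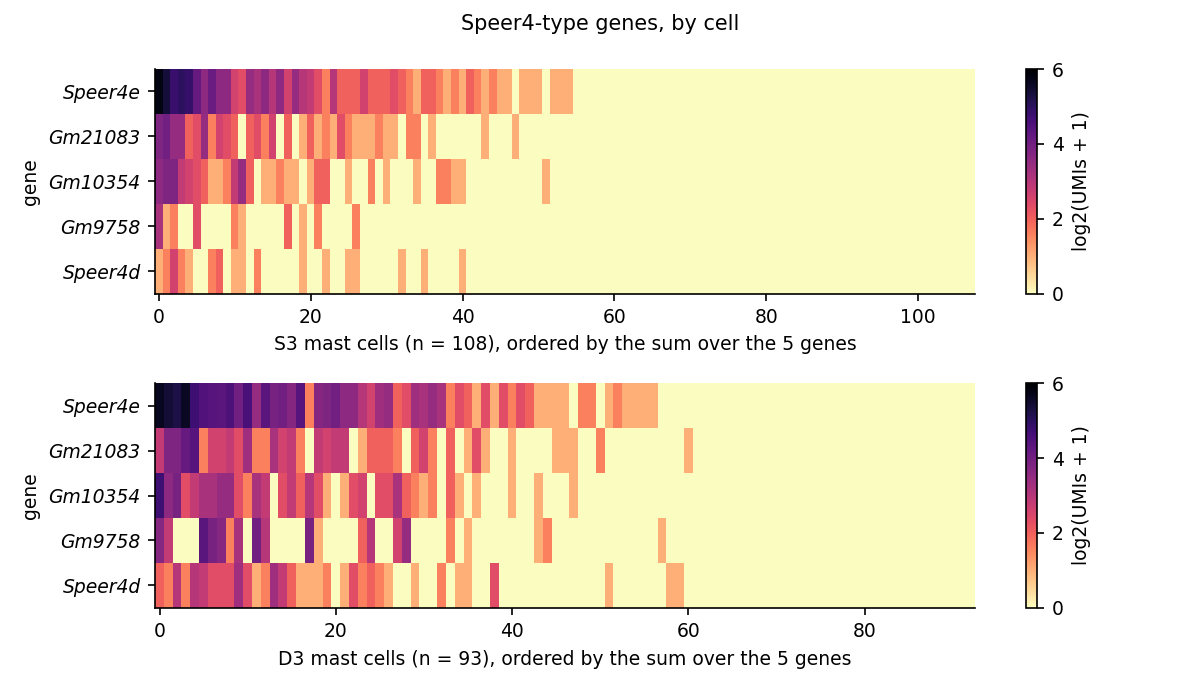
UMIs of 5 Speer4-type genes, as log2 of UMIs plus 1, in each S3 mast cell (top, 108 columns) and D3 mast cell (bottom, 93 columns), ordered by the sum over the genes. The coloured columns, 55 at S3 and 61 at D3, mostly hold several members, and the rest hold 0 UMIs of all 5.

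Beyond this family, the cells varied most in genes of other cells and in their own proteases. The 10 genes with the largest variance over mean at 2000 UMIs were *S100a9*, *S100a8*, *Retnlg*, *Lyz2*, *Mcpt4*, *Malat1*, *Lcn2*, *Cma1*, *Tpsb2* and *Tmsb4x*, where the median gene had a variance over mean of 1.10 at S3 and 1.11 at D3. Of *S100a8* UMIs, 71.7% and 69.3% lay in a single cell. Without the cells of low *Mcpt4* and *Tpsb2*, *S100a9*, *S100a8* and *Retnlg* still led. Their variances over mean were then 86.6, 63.3 and 61.7 at S3 and 98.1, 108 and 42.3 at D3. Among the first 10 there was also *Ccl7*, with a variance over mean of 8.26 at S3 and 16.4 at D3. *Ccl2* was at 4.41 and 5.39 and *Il13* at 3.54 and 4.06. *Mcpt4* and *Cpa3* went together over cells, with Spearman's rho of 0.57 and 0.53 (thinned 0.48 and 0.48). *Il13* and *Slco2b1* had a rho of 0.12 at S3 and 0.44 at D3, and of -0.07 and 0.36 with cells thinned, so the sign at S3 turned.

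Markers of other cell types were read over their whole lists. Of 8 T cell markers *Cd3e* was at 0 by the rule, and the list summed to 16.9 CPM at S3 and 4.92 at D3, beside 54.0 and 29.5 for 10 endothelial and fibroblast markers. Of the 8 NK markers *Ncr1* was at 0 in both libraries (22.5 and 1.97 CPM for the list). The 10 neutrophil markers summed to 12825 and 9753 CPM, most of it *S100a9* and *S100a8*, and B cells held *S100a8* at 7729.9 and 7208 CPM. The 10 macrophage markers summed to 675 and 929 CPM, most of it *Lyz2* at 573 and 729 (log2 ratio 0.35, and 1.91 without the low-marker cells), beside 1557 and 699 in B cells. *C1qa* and *C1qb* were 2-fold higher at D3, at 19.1 and 44.3 and at 19.1 and 47.2 CPM, and B cells held *C1qa* at 17.7 and 25.4 CPM. The rule itself held *C1qa* below 1.5 in every member, a limit that 7 cells at S3 and 12 at D3 did not meet. The 8 basophil markers summed to 2853 CPM at S3 and 4069 at D3. For the 7 with at least 50 UMIs, the median log2 ratio over other dural cells was 5.71 and 6.40. By contrast, the basophil marker *Mcpt8* was at 12.4 and 16.7 CPM, beside 122 and 141 in B cells, of which 0.774% and 0.599% had it when thinned. The part of free RNA and of mixed droplets in the differences between S3 and D3 was not tested beyond these values.

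Mast cells were nearly missing from the brain libraries. The rule found 1 cell of 3748 after the sham operation and 0 of 4601 after PTI, and a count of 0 allows a share of up to 0.0652%.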

How the data were processed

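Single-cell RNA-seq libraries of CD45+ cells were read as the authors deposited them, 1 expression matrix per library. The authors aligned reads to mm10 with Cell Ranger 3.1.0 and normalised with Seurat 3.1.0, and what they deposited is a natural log scale, on which a gene's UMIs are scaled to a cell total of 10000 before 1 is added. Whole UMIs were recovered by dividing each value, taken out of the log, by the smallest of its cell, and 100% came out whole within 1e-06. Library totals were 54749012 UMIs over 4795 barcodes (S3 dura) and 55887697 over 3515 (D3 dura), and the cells were filtered by the limits given above on detected genes and mitochondrial share. Doublets were not removed in the values given, and removal by Scrublet scores in scanpy 1.11.5 was an alternative.

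UMIs were summed over the mast cells of a library and given as CPM with exact Poisson 95% intervals, and shares of cells with exact binomial ones. With 1 library per condition no test was run. Ratios were taken for genes with at least 50 UMIs. Shares of cells with a UMI were also taken with each cell thinned to 2000 UMIs. B cells that also met the mast cell marker level, 1 of 776 and 1 of 167, were left out of the B cell reference. Genes named were the markers, the members of the gene lists, the 10 per direction with the largest ratio of at least 2-fold among genes with at least 100 UMIs (0 UMIs set to the floor of 3), the 20 most over other dural cells and the 10 most variable. The members and gene lists were chosen with earlier results of these data known. Positions are from GENCODE vM21 (457 of 458 genes matched by symbol) and upstream sequences from RefSeq. The computation was tested on simulated data and used Python 3.11.15, numpy 2.4.6, scipy 1.17.1 and pandas 2.3.3.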

Additional observations from a re-analysis of the deposited data

Results flagged for a closer look

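In the brain library after the sham operation, 9 of 4734 barcodes met the mast cell rule when the limits on detected genes and mitochondrial share were not applied. Of these, 1 is the cell given above and 8 failed the limits, all 8 on the mitochondrial share and 5 also on too few genes. In the brain library after PTI 0 of 5925 barcodes met the rule in this way. The source of these barcodes was not tested.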

How the results depend on the processing

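The share of mast cells lay between 2.90% and 3.36% at S3 and between 3.45% and 4.01% at D3 over the alternatives, inside the intervals given. The counts of genes at least 2-fold higher and lower at D3, 43 and 62, depended on what was counted. They were 41 and 95 with no filter on cells, 13 and 19 with cells thinned to 2000 UMIs (1055 genes left), 288 and 254 with the B cell level subtracted, 9 and 12 among genes with at least 200 UMIs, and 1696 and 1930 with no filter on genes. The subtraction also takes off the RNA of genes that B cells make themselves, so its counts are not a measure of free RNA alone. Genes with a variance at least 2 times the mean in both libraries numbered 64 at 2000 UMIs and 115 at 4000 UMIs.

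Of 260 genes under their alternatives, 2249 values in all, 1988 stayed within the counting interval and 253 left it. A further 8 changed direction, counted only for genes at least 2-fold apart in the main setting. Changes of sign in the other genes were not counted apart. Without the cells of low *Mcpt4* and *Tpsb2* the log2 ratio of *Retnlg* was -0.27, of *H2-Aa* 0.33, of *H2-DMa* 0.20, of *H2-DMb1* 0.87 and of *Prtn3* 0.39. *Prtn3* was at 0.060 without its richest cell, *Ifitm6* at -0.043 with no filter on cells and *Orai1* at 0.22 with thinned cells. Of 41 named genes at least 2-fold apart, 22 were so under every alternative run. Leaving out the low-marker cells or each gene's richest cell was chosen after seeing the data. No paired analysis was possible because each condition has 1 library, and for the same reason no library could be left out. Where not stated by the alternative itself, the cause was not tested.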

Other observations

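*Cyp11a1*, the first enzyme of steroid synthesis, was carried by mast cells at 1131 CPM at S3 and 1102 at D3, where the other dural cells were at 6.64 and 4.15. Among the genes most over other dural cells, *Hs6st2*, which sulfates heparan chains, was at 438 and 478 CPM beside 1.2 and 1.61, and *Cobl*, an actin nucleator, at 161 and 162 beside 0.509 and 0.562. *Gnaz*, a G protein subunit, was at 292 CPM at S3 and 169 at D3, with a log2 ratio of -0.78 that lay between -0.87 and -0.71 under the alternatives, and was seen in 87 of 108 and 68 of 93 cells.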
